A study of Mus musculus with 2 samples.

Results

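Low-UMI cardiomyocyte barcodes of mouse right ventricle were compared with deeply captured cardiomyocyte barcodes of the same libraries. A UMI is a tag that counts 1 captured RNA molecule. A barcode belonged to the low-UMI group if it had 500 to 800 UMIs and if Myh6, Tnnt2, Actc1, Myl2, Tnni3 and Mb, which encode sarcomere proteins and myoglobin, together made up at least 3% of them. This chose 79 of 22183 barcodes, 74 in library 1 and 5 in library 2. They were set against deep barcodes of at least 3000 UMIs in which Ttn and Ryr2, 2 long genes for titin and the calcium release channel, made up at least 2%. There were 6704 such barcodes in library 1 and 2574 in library 2.

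Both libraries carry the same labels. The mice, of strain C57/BL6J, were flox/flox for CBP, for p300 and for Trap, with AAV9 given at postnatal day 1 for p300/CBP knockout and right ventricle harvested at postnatal day 21. All barcodes compared here share this genotype and treatment, and with no control sample no result below speaks to the knockout. CBP and p300, encoded by Crebbp and Ep300, are related lysine acetyltransferases. The labels do not explain Trap, do not name the AAV9 promoter or cargo, and do not say whether the libraries came from separate animals. Low-UMI and deep barcodes were compared within each library. The p-values thus rest on how far that difference varied between the 2 libraries, a spread that may be technical. The protocol describes frozen tissue, collagenase digestion and CD45-positive bead enrichment, and does not mention isolation of nuclei. CD45 itself, Ptprc, had 1 UMI in the library 1 members and 0 in the library 2 members, and the 7 lymphocyte markers in the table had 0 UMIs in both. The members were chosen by cardiomyocyte genes, so these counts do not describe the libraries as a whole. Among barcodes of at least 3000 UMIs outside the deep group, 59 of 719 in library 1 and 423 of 3588 in library 2 held a Ptprc UMI.

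Ventricular cardiomyocytes hold many mitochondria and large amounts of mRNA for contractile and energy genes in the cytoplasm. Unspliced transcripts and RNAs such as Malat1 are kept in the nucleus. Long genes such as Ttn and Ryr2 have large introns, so nuclear RNA is rich in them, whereas short genes for sarcomere, ribosomal and respiratory proteins are mostly seen as spliced mRNA in the cytoplasm. Each barcode of a droplet library should mark the RNA of 1 cell or nucleus, but can also tag fragments and RNA that was free in the suspension. The counts give no read positions, so an intact cell, a nucleus, a fragment and a droplet of free RNA cannot be told apart.

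The members were the upper end of a broad distribution in library 1 and a separate few in library 2. These shares chose the members and are given as a description. In library 1 the 6 genes made up 3.0% to 5.26% of a member's UMIs, with a median of 3.28%, which came to 15 to 38 UMIs. Of the 74 members, 70 lay under 4%. Just under the limit, 131 barcodes of 500 to 800 UMIs lay between 2.5% and 3%, the highest at 2.9963%, whereas 56 members lay between 3% and 3.5%. In library 2 the 5 members held 3.56%, 3.78%, 5.76%, 6.10% and 8.21%, and the highest of the 102 other barcodes of that size held 1.75%. The distribution thus had no gap at the limit in library 1 and a wide one in library 2.

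**Figure D1:**
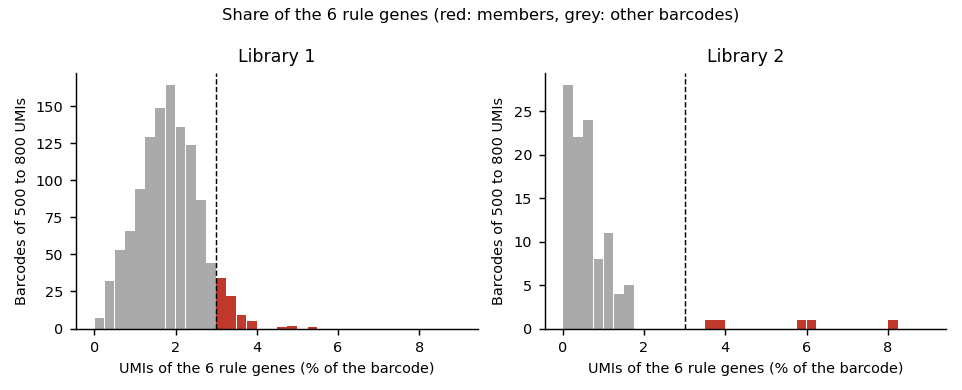
Number of barcodes of 500 to 800 UMIs (vertical axis) by the share of their UMIs from the 6 rule genes (horizontal axis, percent), in library 1 (left) and library 2 (right). Red bars are the 74 and 5 members, grey bars the other barcodes, and the dashed line is the 3% limit, which cuts a continuous slope in library 1 and falls in an empty stretch in library 2.

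The rules for the low-UMI and deep barcodes rest on different genes, and they seldom picked the same barcodes. In library 1, 14 of the 74 members also met the Ttn and Ryr2 rule, as did 2 of the 5 in library 2. Another 230 barcodes of 500 to 800 UMIs in library 1, and 0 of 107 in library 2, met that rule alone. Of the barcodes with at least 3000 UMIs, 162 of 7423 in library 1 and 91 of 6162 in library 2 reached 3% for the 6 genes. The 6 genes had 2.28 UMIs per UMI of Ttn and Ryr2 in the members of library 1, against 0.463 in the deep barcodes. In library 2 the ratio was 4.12 in the members, against 0.403 in the deep barcodes. Over all barcodes, whatever their genes, the same ratio went down with depth in library 1, with values of 1.24, 1.28, 0.813, 0.564, 0.458 and 0.413 in bins that ended at 800, 1500, 3000, 6000 and 12000 UMIs and a last one above. In library 2 it was 1.66, 1.86, 1.10, 0.577, 0.431 and 0.360 in the same bins, whose cell types also differ.

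Mitochondrially encoded RNA was higher and Malat1 lower in the members than in the deep barcodes of both libraries. The 13 mitochondrially encoded genes, which make subunits of the respiratory chain, held a median of 1.85% of UMIs in the members of library 1, against 0.237% in its deep barcodes. In library 2 the members had a median of 3.75%, against 0.107% in the deep barcodes. Malat1, a long noncoding RNA of nuclear speckles, held a median of 3.07% in the members of library 1, against 5.97% in the deep barcodes. In library 2 its median was 0.824% in the members, against 4.67% in the deep barcodes. Single barcodes of the classes overlapped for both measures. In library 1 the mitochondrial share ran between 0.398% and 14.0% in members, against 0.0174% and 11.5% in deep barcodes.

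The other barcodes of 500 to 800 UMIs, which missed the 6-gene limit, had similar levels in library 1. Their median was 1.62% for mitochondrially encoded RNA and 3.22% for Malat1. In library 2 the medians were 0.787% and 1.92%. A mitochondrial share over 5% was found in 9 of 74 members of library 1 and 2 of 5 of library 2, against 14 of 6704 and 3 of 2574 deep barcodes. Among the 74 members of library 1 the mitochondrial share was lower where Malat1 was higher (Spearman's rho -0.47, across barcodes of 1 library, both shares of the same total). Mitochondrial share and 6-gene share had a rho of 0.129 over the same 74 barcodes. Malat1 under 1% was found in 3 of 74 members of library 1 and in 3 of 5 of library 2.

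**Figure D2:**
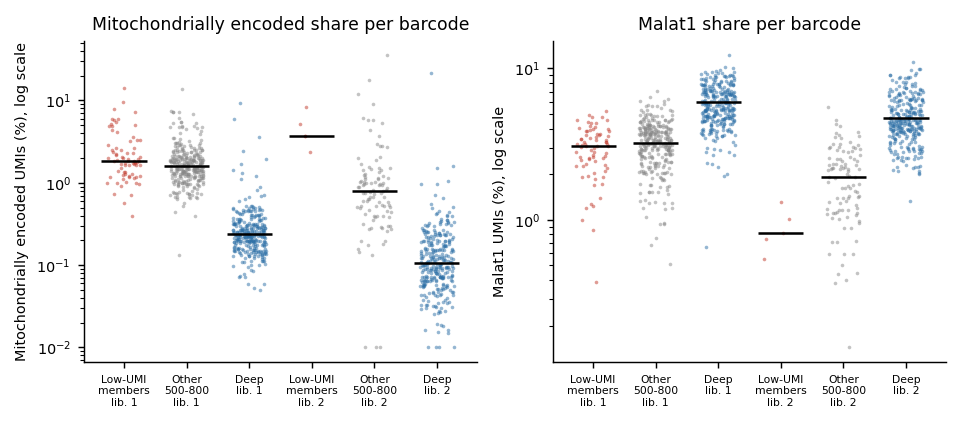
Share of UMIs per barcode (percent, log axis; shares below 0.01% drawn at 0.01%) from mitochondrially encoded genes (left) and Malat1 (right) for members, other barcodes of 500 to 800 UMIs and deep barcodes of each library. Points are barcodes, at most 300 drawn per class, and lines are medians over all barcodes, such as 1.85% against 0.237% mitochondrial in members and deep barcodes of library 1.

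Members did not hold fewer kinds of RNA for their depth. With each barcode thinned to 500 UMIs, the median number of genes was 396.5 in members and 370 in deep barcodes of library 1, and 384 in members and 367 in deep barcodes of library 2. Unthinned, the medians were 451 and 453 genes in the members of the 2 libraries, against 2372.5 and 2816 in the deep barcodes. The other barcodes of 500 to 800 UMIs had a median of 401 and 413 genes at 500 UMIs.

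For a test gene by gene, UMIs were summed over each class in each library, the 8 rule genes were removed, and the 4 sums were fitted in edgeR with library as a block. CPM, counts per 1e6, below scales UMIs to the total of such a sum. The members' sums held 44618 UMIs before removal in library 1 and 3280 in library 2, against 45888375 and 24349806 in the deep barcodes, so the members limit the precision. A gene was called at a Benjamini-Hochberg adjusted p below 0.05 with a difference of 2-fold or more. Of 2002 genes tested, 73 were higher in members (3.65%) and 1 was lower (0.05%). On simulated sums of these sizes the same fit called 42% and 94% of tested genes raised by 2 and 3 log2 units. It called 21.2% and 40.6% of those lowered by as much, so the counts of higher and lower genes are not on an equal footing. Of the 73, 63 were higher in both libraries and 9 had 0 UMIs in the library 2 members. Without the library 2 members 220 genes were higher and 56 lower, and without the library 1 members, with only 5 barcodes left, 0 were called and 634 had an unadjusted p under 0.05. The minimum level for testing was a mean of 100 CPM over the 2 classes, so 374 genes were tested only because they were high in members, and 41 of the 73 were among them. The fits that left out the members of 1 library used the same minimum, so their counts share this limit. Among the 1628 genes that reached 100 CPM in the deep barcodes alone, 32 were higher and 1 was lower.

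The outcome depended on the genes by which the deep class was chosen. With deep barcodes chosen by the same 6 genes at 3%, 162 in library 1 and 91 in library 2, edgeR called 0 of 2025 genes higher and 0 lower, with 2 at an unadjusted p under 0.05. Those deep barcodes had a median mitochondrial share of 3.60% in library 1 and 0.167% in library 2, and a median Malat1 share of 2.29% and 3.76%. With both classes chosen by Ttn and Ryr2 at 2%, giving 244 and 2 low-UMI barcodes, 75 genes were higher and 2 lower, and 41 of the 75 were among the 73. The calls thus depended on which genes chose the deep class.

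Mitochondrially encoded genes stood together among those called. Of the 13, 11 were tested and higher, and 8 of these reached 100 CPM in the deep barcodes alone, with a median log2 difference of 3.85 beside -0.10 over all 2002 genes, and the list's summed level was 29133 CPM in members and 3184 CPM in deep barcodes of library 1. In library 2 it was 50980 CPM in members and 1819 CPM in deep barcodes. mt-Co1, a catalytic subunit of cytochrome c oxidase, had 5610 and 9477 CPM in members of libraries 1 and 2, against 602 and 352 CPM in deep barcodes (log2 difference 3.95, SE 1.09, edgeR adjusted p 0.0142). mt-Cytb, of complex III, had 2404 and 5229 CPM in members, against 230 and 156 CPM in deep barcodes (4.14, SE 0.72, edgeR adjusted p 2.21e-06). The members lay above the deep barcodes in both libraries for each of these genes, which the rule for naming them required. mt-Co3, mt-Co2, mt-Nd6 and mt-Atp6 had log2 differences of 4.08, 4.08, 4.05 and 3.85. Against deep barcodes chosen by the 6 genes, the list's median was 0.45, and the libraries went opposite ways, with 29133 CPM in members and 50000 CPM in those deep barcodes of library 1, and 50980 CPM in members and 15084 CPM in those of library 2.

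Nuclear genes for the same machinery followed for a part of the list. Of 48 tested genes of nuclear-encoded oxidative phosphorylation, 17 were higher and 0 lower, with a median log2 difference of 2.40. Their summed level was 23146 CPM in members and 6275 CPM in deep barcodes of library 1, and 46732 CPM in members and 4778 CPM in deep barcodes of library 2. Atp5b, the catalytic beta subunit of ATP synthase, had 1108 and 4902 CPM in members, against 234 and 213 CPM in deep barcodes (log2 difference 3.22, SE 0.57, edgeR adjusted p 3.62e-06). Cox4i1, a subunit of cytochrome c oxidase, had 1014 and 1961 CPM in members, against 162 and 106 CPM in deep barcodes (3.07, SE 0.56, edgeR adjusted p 5.83e-06). Sdhb, an iron-sulfur subunit of complex II, was not called and had a log2 difference of 0.06. Of the 21 genes of the list that reached 100 CPM in the deep barcodes alone, 11 were higher. The rest of the 48 were tested only through their level in members, so the median of 2.40 is partly set by the minimum level. With the library 2 members left out and the same minimum level, the list's median was 2.32, beside -0.10 over all genes of that fit. Against deep barcodes chosen by the 6 genes its median was -0.01, with the libraries again opposite, at 23146 CPM in members and 39899 CPM in those deep barcodes of library 1, and 46732 CPM in members and 12425 CPM in those of library 2.

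Few fuel use genes were called, at shares near the 3.65% over all genes. Of 21 tested genes of fatty acid uptake and oxidation, 1 was higher and 0 lower (median log2 difference 0.58, between -1.12 and 1.33 over the alternatives). The gene was Fabp3, the heart fatty acid carrier, with 872 and 1307 CPM in members, against 263 and 185 CPM in deep barcodes (edgeR adjusted p 0.0174). Cd36, a fatty acid transporter of the cell membrane, was not called, with 1485 CPM in members and 2179 CPM in deep barcodes of library 1. Of the 21 genes, 16 reached 100 CPM in the deep barcodes alone, Fabp3 among them, and the rest were tested only through their level in members. Of 14 glycolysis and creatine kinase genes, 1 was higher, Aldoa, which encodes aldolase A (log2 difference 3.20, SE 0.68, edgeR adjusted p 3.48e-04). Of the 14, 7 reached 100 CPM in the deep barcodes alone, and 0 of these were called. Aldoa, Ckm and Gapdh were tested only through their level in members. Ckm and Gapdh had log2 differences of 2.45 and 2.28 and were not called. Without the library 2 members 4 of 21 fatty acid genes were higher and 1 lower, and 5 of 14 glycolysis and creatine kinase genes were higher.

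Some ribosomal protein genes were called higher. Of 29 genes tested on this list, 9 were higher and 0 lower, with a median log2 difference of 3.02. The list also holds translation elongation factors and Tpt1, and Eef1a1, Eef1a2 and Tpt1 are among the 9. The list's summed level was 9334 CPM in members and 1481 CPM in deep barcodes of library 1, and 19608 CPM in members and 1567 CPM in deep barcodes of library 2. Rps7 had 306 and 1307 CPM in members, against 24.2 and 34.6 CPM in deep barcodes (log2 difference 4.17, SE 1.08, edgeR adjusted p 0.00653), and Rps3 had a log2 difference of 4.01. These levels in members rest on few molecules, 13 and 4 UMIs for Rps7 and 11 and 1 for Rps3. Ribosomal protein genes have many processed copies in the genome, and mitochondrial genes have nuclear copies, so their counts are uncertain to that extent. Of the 29 genes, 28 were tested only through their level in members, so the count of calls and the median are partly set by the minimum level. The exception was Tpt1, so this holds for every ribosomal protein gene tested on the list. Without the library 2 members, the median log2 difference of the 25 tested genes of this list was 2.69, beside -0.10 over all genes of that fit. The same minimum level applied there, so this median is partly set by it too.

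Contractile genes outside the rule differed by kind in their summed levels, and less clearly in calls. Of thin-filament and light-chain genes that reached 100 CPM in the deep barcodes alone, 1 of 7 was higher. For genes of the Z-disc, M-band and cytoskeleton this was 0 of 20. Of 10 tested thin-filament and light-chain genes 4 were higher, Myl3, Myl7, Myl4 and Myl9, the last 3 with 0 UMIs in the library 2 members and tested only through their level in members. The list summed to 8415 CPM in members and 4103 CPM in deep barcodes of library 1, and to 12092 CPM in members and 3280 CPM in deep barcodes of library 2. With those members left out, 6 of the 10 were higher. Myl3, the ventricular essential light chain, had 2192 and 6209 CPM in members, against 515 and 412 CPM in deep barcodes (log2 difference 2.93, SE 0.76, edgeR adjusted p 0.0065). Of 23 genes of the Z-disc, M-band and cytoskeleton, 0 were called by edgeR (median log2 difference -0.48), 1 was higher at an unadjusted p under 0.05, and DESeq2 called 1 lower, Fhl2, a LIM-domain protein of the sarcomere (log2 difference -2.66, DESeq2 adjusted p 0.0422). The Z-disc list summed to 24938 CPM in members and 34830 CPM in deep barcodes of library 1, and to 11111 and 35540 CPM in library 2. Dmd, which encodes dystrophin and is among the longest genes, had 6953 and 1634 CPM in members, against 10008 and 11503 CPM in deep barcodes, without a call. In the fit that leaves out the library 2 members, 2 of 22 tested genes of this list were higher and 2 lower.

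Calcium handling is named in the study's title. Of its 18 tested genes 0 were called higher or lower with edgeR, with 1 higher at an unadjusted p under 0.05, and the median log2 difference was -0.58. The summed level was 33234 CPM in members and 45642 CPM in deep barcodes of library 1, and 20915 CPM in members and 47410 CPM in deep barcodes of library 2. Atp2a2, the calcium pump of the sarcoplasmic reticulum, had 7213 and 10458 CPM in members, against 6105 and 4974 CPM in deep barcodes. Pln, which restrains that pump, had 4926 and 3595 CPM in members, against 3239 and 2226 CPM in deep barcodes. Cacna1c, the pore of the L-type calcium channel, had 3701 and 980 CPM in members, against 9548 and 12339 CPM in deep barcodes. Slc8a1, the sodium-calcium exchanger, had 2899 and 327 CPM in members, against 5119 and 6967 CPM in deep barcodes. None of these 4 passed the edgeR test, and DESeq2 called 1 gene of the list, Cacna1c, lower (log2 difference -2.91, SE 0.86, DESeq2 adjusted p 0.0177). Leaving out the library 2 members, edgeR called 1 of the list higher and 2 lower.

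Regulators of transcription were not called in the fit on both libraries. Of 13 tested cardiac transcription factors 0 were called with edgeR or DESeq2 and 0 reached an unadjusted p under 0.05 in edgeR (median log2 difference -0.82), and their summed level was 5516 CPM in members and 8998 CPM in deep barcodes of library 1. Leaving out the library 2 members, 1 of the 13 was lower. Of 8 tested acetyltransferases and deacetylases 0 were called by either tool and 0 reached an unadjusted p under 0.05 in edgeR (median log2 difference -0.87). Crebbp, which encodes CBP, had 259 and 980 CPM in members, against 407 and 509 CPM in deep barcodes, from 11 and 3 UMIs in members. Ep300 had 3 and 0 UMIs in members and was not tested. A feature named GFP, whose origin the labels do not explain, had 0 UMIs in the 74 and 5 members, which allows a share of barcodes with a UMI of up to 4.05% and 60.0%. It was seen in 21.4% and 23.6% of deep barcodes of libraries 1 and 2, and in 1.95% and 1.63% of them after thinning to 500 UMIs, so its absence was not detectable as a difference at this depth.

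The 1 gene called lower was Mhrt, annotated as an antisense noncoding RNA on chromosome 14 (GRCm38, 54968678 to 54974349, plus strand). Mhrt had 212 and 327 CPM in members, from 9 and 1 UMIs, against 1576 and 1690 CPM in deep barcodes (log2 difference -2.79, SE 0.89, edgeR adjusted p 0.048). At 500 UMIs per barcode, 8.11% of members of library 1 had a Mhrt UMI, against 51.2% of deep barcodes, and 1 of 5 members of library 2, against 56.8% of deep barcodes. In the remaining barcodes of at least 3000 UMIs, whose median 6-gene share was 0.533% and 0.0938%, the thinned share was 13.9% and 1.34%. The sources used here do not state whether counting used strand. Without strand, reads of Mhrt and of a gene on the opposite strand cannot be told apart where the 2 overlap. The call was lost under 14 of 21 alternatives with a test, at adjusted p-values of 0.0764 to 0.999, among them TMM scaling (edgeR adjusted p 0.538) and deep barcodes chosen by the 6 genes (0.999). Its log2 difference was negative under every alternative, between -4.16 and -1.79. Of the 5 tested nuclear-retained RNAs, Mhrt was the 1 called. The 9 of the 11 listed that were in the data summed to 35992 CPM in members and 71492 CPM in deep barcodes of library 1. In library 2 they summed to 11438 CPM in members and 57624 CPM in deep barcodes. These sums are mostly Malat1, with 1315 of 1527 UMIs in members and 2802759 of 3105056 in deep barcodes of library 1. Malat1 was not called by edgeR (log2 difference -1.74, SE 4.30, adjusted p 0.993), and DESeq2 called it lower (log2 difference -2.37, SE 0.59, DESeq2 adjusted p 0.00221). Neat1, another nuclear RNA, was not called, with 3889 and 1307 CPM in members, against 3737 and 2416 CPM in deep barcodes.

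Of the 15 genes with the largest called differences in members, Tuba1b, Timm8b, Lrp1 and Rgs5 were in none of the lists for energy or ribosomes and are not the fibroblast and red cell genes described below. Tuba1b, an alpha tubulin, had 165 and 654 CPM in members, against 10.9 and 10.5 CPM in deep barcodes (log2 difference 4.48, SE 1.02, edgeR adjusted p 9.84e-04). Timm8b, a chaperone of mitochondrial protein import, had 141 and 980 CPM in members, against 14.3 and 7.74 CPM in deep barcodes (4.45, edgeR adjusted p 0.00125). Lrp1, an endocytic receptor, had 189 and 327 CPM in members, against 9.83 and 26.3 CPM in deep barcodes, and Rgs5, a pericyte marker, had 236 and 654 CPM in members, against 19.2 and 23.0 CPM in deep barcodes. These 4 rest on 6 to 10 UMIs in the members of library 1 and 1 to 3 in those of library 2. All 4 were tested only through their level in members, so a large positive difference was partly set by the minimum level. Of 7 tested heat shock and folding genes, 1 was higher, the constitutive chaperone Hspa8 (2.62, SE 0.80, edgeR adjusted p 0.0331). Of 13 tested ion channels and transporters of the cell membrane, 0 were called with edgeR or DESeq2 and 0 reached an unadjusted p under 0.05 in edgeR (median log2 difference -0.19). Without the library 2 members 1 of the 13 was lower.

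**Figure D3:**
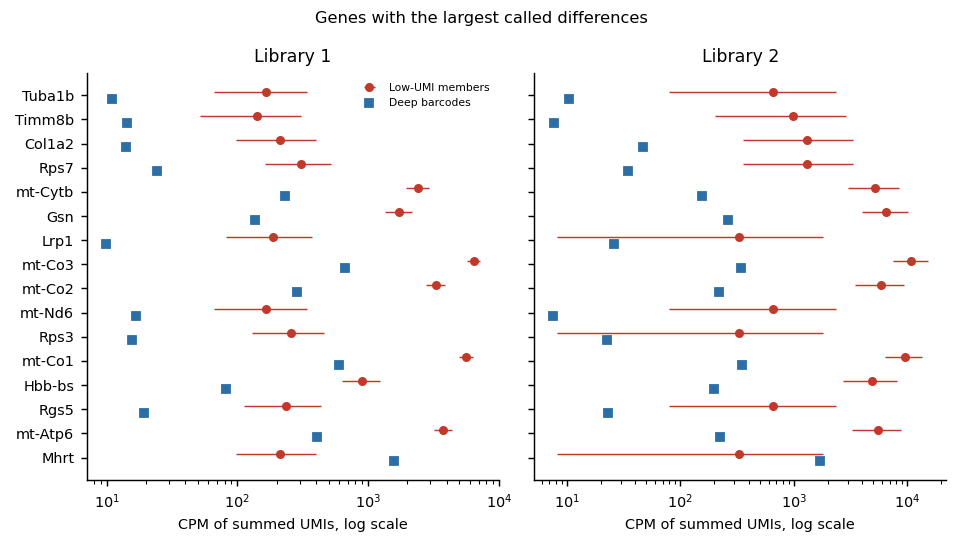
Level in CPM (log axis) of the 15 genes with the largest called positive difference and of Mhrt, in library 1 (left) and library 2 (right). Red circles are members with 95% exact Poisson intervals of the counts, which cover counting error only, and blue squares are deep barcodes. Members lie to the right for every gene but Mhrt, which the choice of genes with the same sign in both libraries required. Their intervals are far wider in library 2.

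Differences ran with the length of the gene on the genome. The counts of calls here are limited to the 1628 genes that reached 100 CPM in the deep barcodes alone, since short genes were often tested only through their level in members. The 32 higher genes among them had a median span of 6230 bp, against 90695 bp for all 1628. Calls of higher level were 15 of 35 genes under 5 kb, 11 of 134 at 5 to 20 kb, 3 of 283 at 20 to 50 kb, 3 of 434 at 50 to 100 kb, 0 of 406 at 100 to 200 kb and 0 of 336 above. The median log2 difference in these bins was 1.98, 0.30, 0.03, -0.22, -0.44 and -0.68. These counts, spans and medians include the 8 mitochondrially encoded genes at that level. All 8 are under 5 kb and were higher, so they are among the 15 of 35, and the bin was not counted without them. With Malat1, mitochondrial and rule genes left out, genes under 5 kb held 11.2% of UMIs in members and 3.50% in deep barcodes of library 1, and 16.5% in members and 2.40% in deep barcodes of library 2. Genes above 200 kb held 19.7% in members and 30.0% in deep barcodes of library 1, and 12.3% in members and 32.0% in deep barcodes of library 2. The other barcodes of 500 to 800 UMIs held 9.86% and 9.88% in genes under 5 kb and 21.1% and 19.8% in genes above 200 kb.

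**Figure D4:**
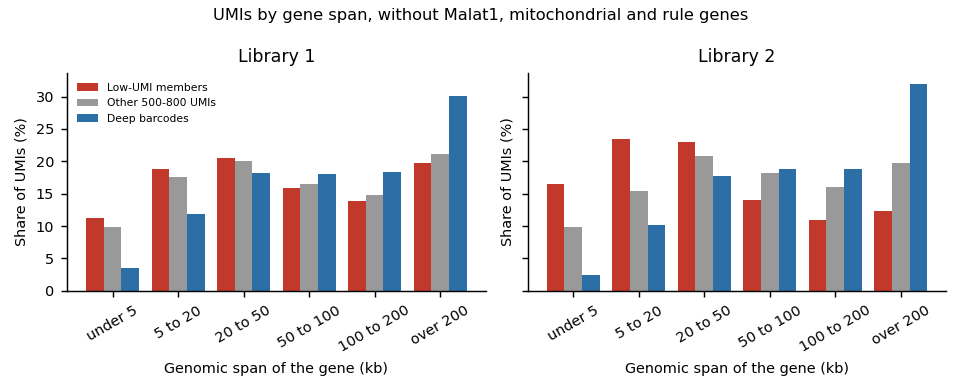
Share of UMIs (percent) by genomic span of the gene (kb) in members, other barcodes of 500 to 800 UMIs and deep barcodes of each library, without Malat1, mitochondrial and rule genes. Members and the other small barcodes have more UMIs in genes under 5 kb (11.2% and 9.86% in library 1) than deep barcodes (3.50%), and fewer above 200 kb.

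Transcripts of other cell types moved with these differences. Of the 10 fibroblast markers listed 5 were tested and higher in members, of which Col1a2, Col3a1 and Mgp were tested only through their level there. Without the library 2 members 3 of the 5 were higher, and the median log2 difference was 2.71 in place of 3.61. The summed level of the list was 3559 CPM in members and 339 CPM in deep barcodes of library 1. In library 2 it was 17320 CPM in members and 932 CPM in deep barcodes. Gsn, an actin-severing protein, had 1721 and 6536 CPM in members, against 136 and 261 CPM in deep barcodes (log2 difference 4.12, SE 0.68, edgeR adjusted p 3.66e-07). Dcn, a matrix proteoglycan, had 354 and 6209 CPM in members, against 68.4 and 208 CPM in deep barcodes. In library 1 these UMIs were spread, with 17 of the list's 151 in the highest member and none in 13 of the 74. In library 2, 1 barcode held 44 of the 53. The other barcodes of 500 to 800 UMIs held 3161 CPM of the list in library 1 and 16659 CPM in library 2.

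Red cell transcripts behaved in the same way. Of the erythroid genes, 3 were tested and higher, of which Hbb-bs alone reached 100 CPM in the deep barcodes and the 2 alpha globins were tested only through their level in members. The list of 6 summed to 1815 CPM in members and 178 CPM in deep barcodes of library 1, and to 6863 CPM in members and 338 CPM in deep barcodes of library 2. Hbb-bs, an adult beta globin, had 896 and 4902 CPM in members, against 81.5 and 199 CPM in deep barcodes (log2 difference 3.95, SE 0.51, edgeR adjusted p 3.38e-11). At 500 UMIs per barcode it was found in 31.1% of members of library 1, against 2.79% of deep barcodes. Hba-a1 and Hba-a2 are near-identical copies whose counts cannot be separated with certainty. The endothelial list summed to 707 and 1634 CPM in members, against 120 and 280 CPM in deep barcodes, and the macrophage list to 212 and 327 CPM in members, against 44.7 and 165 CPM in deep barcodes. Free RNA in the suspension, and its part in any difference above, was not tested.

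Atrial transcripts came from a few barcodes of library 1. The atrial markers Nppa, Myl7 and Myl4, tested only through their level in members, were higher in the fit, with a summed level for the list of 3323 CPM in members and 151 CPM in deep barcodes of library 1. All 7 of the list were at 0 in the library 2 members, against 19.1 CPM in its deep barcodes. Nppa, the atrial natriuretic peptide gene, had 2428 CPM in members of library 1, against 100.4 CPM in deep barcodes (log2 difference 4.50, SE 0.72, edgeR adjusted p 1.94e-07). Of its 103 UMIs in members, 47 came from 1 barcode and 91 from 3, and 60 of the 74 members had none. The 3 highest members held 116 of the list's 141 UMIs. The fitted difference rests on those few barcodes.

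**Figure D5:**
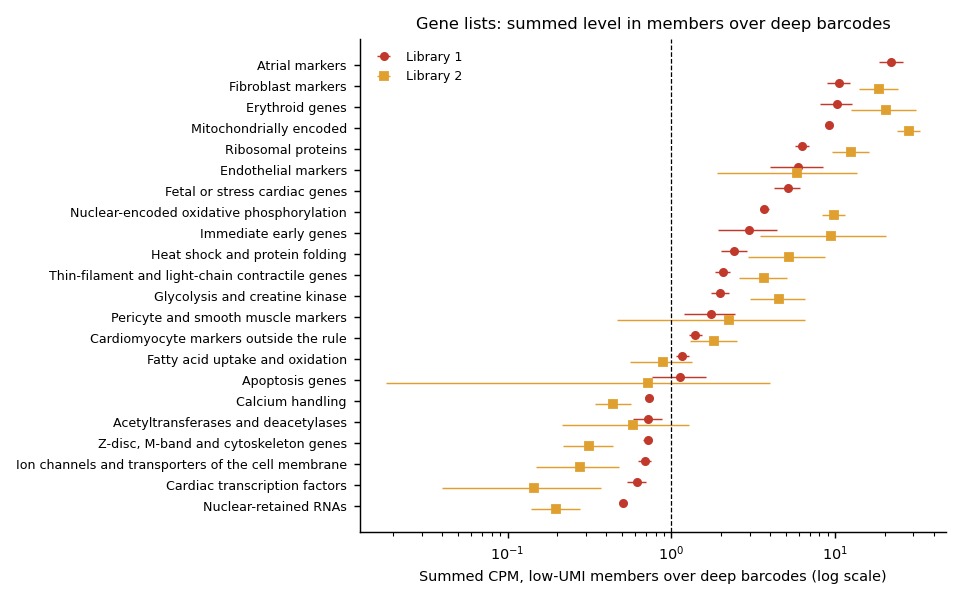
Ratio of the summed CPM of each gene list in members to that in deep barcodes (log axis), in library 1 (red circles) and library 2 (yellow squares), with 95% exact Poisson intervals of the members' counts; lists with at least 20 UMIs in the library 1 members are drawn, and a list at 0 in library 2 has no square. Mitochondrially encoded, ribosomal, fibroblast and erythroid lists lie above 1 in both libraries (9.15 and 28.0 for the mitochondrial list). Calcium handling, Z-disc and nuclear-retained lists, the last mostly Malat1 UMIs, lie below 1 in both.

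Cardiomyocyte markers were present in the members and in the other small barcodes of library 1. The 6 cardiomyocyte markers that the rule did not use, Actn2, Myl3, Tnnc1, Pln, Ldb3 and Mybpc3, were all present and summed to 11149 and 12745 CPM in members of libraries 1 and 2, against 7979 and 6973 CPM in deep barcodes. The other barcodes of 500 to 800 UMIs held 8994 CPM in library 1 and 2619 CPM in library 2. In library 1 the exact 95% Poisson intervals, which cover counting error only, were 10167 to 12200 CPM for the members and 8760 to 9234 CPM for those other barcodes. In a fit of the members against those other barcodes, added after the data were seen, edgeR called 0 of 1155 genes higher (0.0%) and 0 lower (0.0%), with 23 at an unadjusted p under 0.05. The smallest p was that of Nppa (log2 difference 2.70, SE 0.77, edgeR adjusted p 0.515). Next came Atp5b (1.68, edgeR adjusted p 0.999), then Atp5o, Eef1a2 and Myl3. The members and the other small barcodes were therefore not separated by this test, which rests on 5 barcodes in library 2 and does not show that they are alike.

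With all 1266 barcodes of 500 to 800 UMIs against the deep barcodes, 220 of 2009 genes were higher (11.0%) and 124 lower (6.17%). Of the 73 genes higher in members, 56 were among the 220. In library 2 most of these barcodes held little cardiomyocyte RNA, with a median 6-gene share of 0.527% in the 102 that were no members. All 10 tested mitochondrially encoded genes and 23 of 24 tested genes of the ribosomal protein list were higher. The minimum level was here a mean over the small and the deep barcodes. Genes low in deep barcodes, as nearly all of the ribosomal protein list were, were thus tested only through the small barcodes. The count of 23 of 24 is therefore partly set by the minimum level. Mhrt was lower (log2 difference -3.30, SE 0.69, edgeR adjusted p 2.62e-05). Lower calls also included 4 of 13 cardiac transcription factors, 3 of 14 ion channels and transporters, 3 of 22 genes of the Z-disc list, 2 of 8 thin-filament and light-chain genes and 1 of 19 calcium handling genes.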

How the data were processed

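The authors deposited raw UMI counts, with no scaling, in a matrix from Cell Ranger 6.0.0 (per the file headers). Besides this tool, the submitters' processing notes list fastp, Trimmomatic, Seurat and edgeR and build GRCm38 (mm10), with no roles; the use of introns and of strand in counting is not stated there. Barcodes ending in 1 and 2 were taken as the samples whose titles end in 1 and 2. Library 1 held 12736 barcodes and 57982200 UMIs and library 2 held 9447 and 50199793, with 39 barcodes under 500 UMIs. The libraries shared 17 barcode sequences, 1 of them a member's. No doublet caller was run and no mitochondrial limit set.

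Counts of the 8 rule genes were removed, and counts summed per library and class were tested with edgeR 4.0.16 (R 4.3.3; quasi-likelihood, library block, Benjamini-Hochberg), which left 1 residual degree of freedom. The block is paired by construction, as members and deep barcodes of 1 library share a suspension. The fit first designed used TMM and filterByExpr alone. On simulated data it recovered no changed gene, and on the deposited counts its TMM factor for the members of library 2 was 3.92. The reported fit scales by totals and adds a mean of at least 100 CPM over the 2 pooled classes, a choice made after the data were seen. Named genes were the 15 with the largest called difference in each direction, with the same sign in both libraries and a mean of at least 100 CPM over the 4 sums, and list members. Alb, Gm26870 and Ptprc were chosen after their values were seen. Members and lists were chosen with earlier results of these data known. Gene spans came from GENCODE M21. Thinning drew 500 UMIs per barcode (seed 7). Intervals (Clopper-Pearson or exact Poisson, 95%) and limits from 0 counts (3 counts) cover counting error only. Python 3.11.15 and DESeq2 1.42.0, as an alternative, were also used.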

Additional observations from a re-analysis of the deposited data

How the results depend on the processing

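Most alternatives moved the counts of called genes by over 1.5 times, and the cause was not tested unless named. Higher and lower genes, 73 and 1 as reported with the replicate block, numbered 212 and 42 with no replicate block, 109 and 0 with TMM, 119 and 0 with DESeq2 size factors in edgeR, 117 and 8 with DESeq2, 316 and 1 with filterByExpr only (13605 genes tested), 268 and 0 with no filter, 0 and 0 with TMM and filterByExpr as first designed (105 at an unadjusted p under 0.05), and 135 and 9 in a fit on 4 classes. Changing the barcodes gave 17 and 1 with the 6 genes at 5%, 52 and 0 at 2%, 21 and 0 at 500 to 650 UMIs, 43 and 0 with at most 5% mitochondrial UMIs, 78 and 1 with deep barcodes up to 10000 UMIs, 75 and 2 with low-UMI barcodes by Ttn and Ryr2, 0 and 0 with deep barcodes by the 6 genes, 220 and 124 with all barcodes of 500 to 800 UMIs, and 42 and 19 with deep sums thinned to the members' totals (339 genes tested). Leaving out 1 class sum of 1 library, with no block and the lone sum assumed to vary like the other class, gave between 0 and 220 higher and between 0 and 56 lower. The members of library 1 left out gave 0 and 0, with 634 genes at an unadjusted p under 0.05, those of library 2 gave 220 and 56, and the deep barcodes of library 1 and library 2 gave 37 and 0, and 28 and 0. TMM moved the median of all genes to -0.28 and DESeq2 size factors to -0.42, from -0.10. No gene named by the rule changed sign under any alternative that gave it a value. These genes were chosen as called with the same sign in both libraries, so this is partly set by the choice. The 3280 UMIs of the library 2 members limit every test, and a difference that was not called may still exist at this depth.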

Other observations

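Gm26870, an annotated gene without a named function in the table, had 3677 CPM in members of library 1, against 207 CPM in deep barcodes, from 156 UMIs of which 53 lay in 3 barcodes and none in 42 of the 74 members. In library 2 it had 1 UMI in the 5 members. It was chosen after its values were seen, and edgeR called it higher (log2 difference 2.80, SE 0.88, adjusted p 0.042) without the same sign in both libraries. Alb, the albumin gene of liver, also chosen after its values were seen, had 306 CPM in members of library 1, 1223 CPM in the other barcodes of 500 to 800 UMIs and 18.6 CPM in deep barcodes. In library 2 it had 0 UMIs in all of these classes. Of the members of library 1, 7 of 74 held an Alb UMI.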
